A study of Mus musculus with 6 samples.

Results

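The genes described here are the regulators of small GTPases that gave rise to circular RNAs (circRNAs) in mouse liver. A circRNA is a closed loop made when the end of an exon is joined backwards to the start of the same or an earlier exon, and it is counted by the back-spliced reads that cross this junction. The host gene is the gene whose transcript supplied the loop. Members were the host genes to which the deposited table gives the Gene Ontology term for GTPase activator activity or for guanyl-nucleotide exchange factor activity. Of 138 such genes, 8 were left out because they also hold a term for protein ubiquitination, chromatin organization or lipid metabolism or lie in the insulin, insulin resistance, mTOR or AMPK pathway, and Dennd1b was left out by name. The remaining 129 of 3468 host genes (3.72%) supplied 358 of the 7469 listed circRNAs (4.79%) and 1648 of 36218 back-spliced reads (4.55%). The activator term alone was held by 65 members, the exchange factor term alone by 49 members, and both terms by 15 members.

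Small GTPases of the Ras, Rab, Arf and Ran groups and their relatives are molecular switches that are active when bound to GTP and inactive when bound to GDP. Guanine nucleotide exchange factors (GEFs) release GDP and so let GTP bind, whereas GTPase-activating proteins (GAPs) speed up the hydrolysis of GTP and so end the active state. Rab and Arf proteins steer vesicle traffic, and Ras and Rap proteins relay growth and adhesion signals, all of which hepatocytes use for secretion, receptor uptake and growth.

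Livers came from C57BL/6J mice at 12 weeks of age, 3 fed a high-fat diet (HFD) and 3 fed a low-fat diet (LFD), with no transgene or drug in either group. The study's methods state that the mice were male, and the labels list 3 samples for each diet. Ribosomal RNA was depleted, and the methods add a digestion with RNase R, an enzyme that removes linear RNA. The files hold the back-spliced read count of each circRNA in each library and SRPBM, the same count scaled by the number of reads that mapped. All 10 hepatocyte marker genes looked for were listed as circRNA hosts with 101 reads, of which a library held 17 to 35 on the HFD and 5 to 13 on the LFD, and the part of this difference in the results below was not tested. Markers of other liver cells gave few back-spliced reads, with 9 reads from the macrophage gene Adgre1, 5 reads from 2 endothelial genes and 1 read from 1 stellate cell gene. No cholangiocyte or lymphocyte marker gave a circle. A gene without a circle is not listed whatever its linear RNA, so that these counts do not give the share of each cell type.

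Libraries held between 5384 and 6590 back-spliced reads in all, and 1 read was worth 0.229 to 0.277 SRPBM. A count of 0 allowed up to 3 reads, which corresponds to 0.688 to 0.830 SRPBM, and this limit covers counting error only. HFD library 1 and LFD library 3 fall into a class of higher base quality in the study's sequencing table and stood apart from the other 4 in these counts too. Intronic circles took 10.8% of the reads of HFD library 1 and 8.28% of LFD library 3, against 4.56% to 5.43% in the other 4 libraries. For the members that these 2 libraries touch most, values are also given for the other 4 libraries alone, called the lower quality class.

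The junctions of the circles with the most reads are shown first because a few of them carried much of the signal. Each line gives the last 30 bases of the circle followed by its first 30 bases, 5′ to 3′ on the strand of the gene, and the capitals mark the 5 bases on each side of the back-splice. The sequences were read from GENCODE M21 transcripts, and positions are those of the deposited table. The submitters' processing notes name the build mm9, but 99.1% of the ends of the members' exonic circles and 98.8% of their starts lay on a GENCODE M21 exon edge or, for starts, 1 base inside it, so that positions are treated as GRCm38.
Rabep1 mmu_circ_0000281 (chr11:70874746-70884968, plus strand): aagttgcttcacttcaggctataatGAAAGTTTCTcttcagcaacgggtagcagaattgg
Rabep1 mmu_circ_0000282 (chr11:70874746-70887171, plus strand): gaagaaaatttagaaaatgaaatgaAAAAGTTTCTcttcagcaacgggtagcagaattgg
Psd3 mmu_circ_0001683 (chr8:67904117-67908889, minus strand): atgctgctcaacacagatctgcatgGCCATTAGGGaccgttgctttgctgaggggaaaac
Psd3 circRNA1513 (chr8:67904117-67908886, minus strand): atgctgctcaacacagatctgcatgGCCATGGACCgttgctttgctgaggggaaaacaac
Rabgap1l mmu_circ_0008324 (chr1:160700712-160702460, minus strand): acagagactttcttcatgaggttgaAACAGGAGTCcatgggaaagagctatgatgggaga
Sipa1l1 mmu_circ_0004245 (chr12:82357233-82372542, plus strand): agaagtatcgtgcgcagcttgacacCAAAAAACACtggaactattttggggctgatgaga

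The 2 Rabep1 circles share their first 30 bases, the start of exon 2, and differ in the exon that is joined to it, exon 3 or exon 4 of 18. The 2 Psd3 circles share their last 30 bases, and the second starts 3 bases further into the exon. The Sipa1l1 circle is shown because it belongs to the only member past the thresholds between the diets, and it joins the end of exon 7 to the start of exon 5. The shortest circle of the members was that of Fgd6, whose exons 4 and 5 (chr10:94089577-94089762, plus strand) make a loop of 99 bases, printed whole with the first and last 5 bases in capitals.
Fgd6 mmu_circ_0000208: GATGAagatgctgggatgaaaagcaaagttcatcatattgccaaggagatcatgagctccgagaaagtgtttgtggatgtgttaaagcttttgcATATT

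Reads were concentrated in a few host genes. Rabep1 with 313 reads and Psd3 with 156 reads together held 28.5% of the members' reads, and the 10 members with the most reads held 53.2%. At the other end, 59 members had 3 reads or fewer over all 6 libraries, and 35 members had 10 reads or more. The median was 4 reads a member against 3 reads over all host genes. Reads were found in 1, 2, 3, 4, 5 and 6 libraries for 47, 23, 23, 12, 10 and 14 members. Host genes seen in a single library thus made up 36.4% of the members and 47.1% of all host genes. The 47 members seen in a single library held 76 reads in all, 41 of them with 1 or 2 reads and none with more than 6 reads.

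Members gave more circles per gene than host genes in general. A single listed circle was found for 53 members (41.1%, against 54.2% of all host genes), and 5 or more circles were found for 22 members (17.1%, against 9.03%). Rabep1 was listed with 15 circles, Dennd5b with 14, Psd3 with 12, Dennd4a with 11, and Rabgap1l and Usp6nl with 10 each. The transcripts on which the members' circles were placed were also longer, with a median of 21 exons against 15 for all placed circles. Neither difference was tested, since the members were not a random draw of host genes.

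Exonic circles made up 334 of the 358 entries (93.3%, against 85.8% of all entries), and 326 of them could be placed on the exons of the listed transcript. The placed circles spanned a median of 3 exons and 410.5 bases, close to the 3 exons and 399 bases of all placed circles. Of the exonic circles, 12 held 1 exon, 106 held 2 exons, 74 held 3 exons and 57 held 4 exons, and the longest run was 13 exons. In length the circles ran from 99 bases in Fgd6 to 3397 bases in Akap13, an anchoring protein with an exchange factor domain. Exon 2 was the first exon of 75 circles (23.0%, against 28.7% of all placed circles) that held 37.2% of the members' reads in placed circles (against 36.9%). A single circle, from Itsn1, started at exon 1, and no circle held the last exon of its transcript. Coding exons alone made up 273 circles (83.7%, against 77.5%), and 35 circles (10.7%, against 12.7%) held the start codon. The length was a multiple of 3 in 99 of the 273 coding circles (36.3%, against 37.3% of all), and these held 47.4% of the reads of that class (against 40.1%), with the 333 bases or 111 codons of the leading Rabep1 circle among them. These shares are descriptions over circles that share host genes and were not tested.

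Intronic circles were few, 24 from 23 members with 41 reads, and 22 of them were seen in a single library. Rapgef4, which encodes a cAMP-responsive GEF for Rap1, was listed only with an intronic circle, at 4 and 2 reads in HFD libraries 1 and 2 and none elsewhere. HFD library 1 held 14 of the 41 intronic reads.

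**Figure D1:**
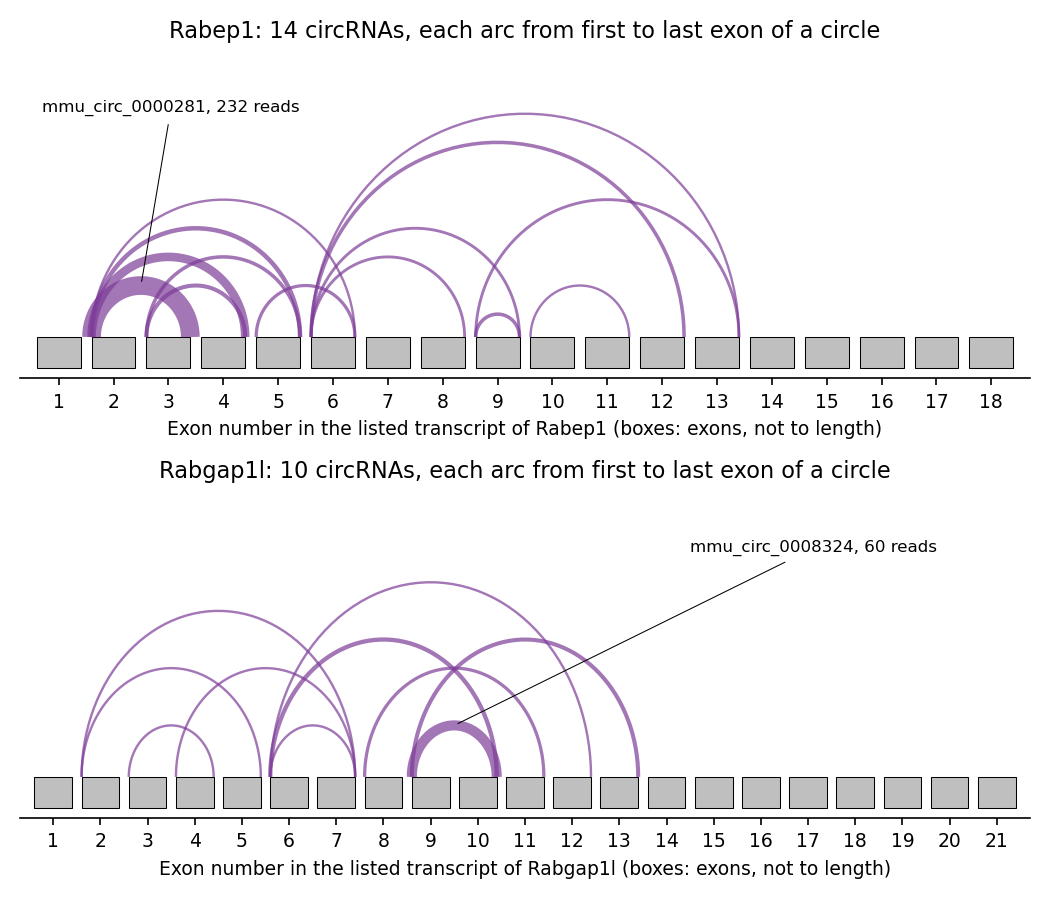
Exon maps of the circles of Rabep1 (top) and Rabgap1l (bottom), with exon number on the horizontal axis and exon boxes not drawn to length. Each arc runs from the first to the last exon of a circle and its width grows with the square root of the reads over 6 libraries. Of the 15 Rabep1 circles, 14 lie on the transcript shown; most reads of Rabep1 lie on the short arcs that start at exon 2, and those of Rabgap1l on the arc over exons 9 and 10.

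Rabep1 encodes Rabaptin-5, a partner of the Rab5 exchange factor on early endosomes, and carries the activator term although it works as an effector. Its circles used 7 start sites and 9 end sites, and the start of exon 2 alone accounted for 282 reads (90.1%). The circle of exons 2 and 3, mmu_circ_0000281, held 232 reads, and the circle of exons 2 to 4, mmu_circ_0000282, held 41 reads. The leading circle made up 57.6% to 90.3% of the reads of the gene in the 6 libraries, so that it was the most abundant in each of them. Among all host genes Rabep1 ranked 7th by reads.

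In Psd3, a GEF for Arf6, the start at exon 4 of the leading circle accounted for 121 of 156 reads (77.6%). The leading circle, mmu_circ_0001683, held 77 reads, and circRNA1512, which shares its start and runs further downstream, held 39 reads. The leading circle held 35.3% to 76.2% of the gene's reads in a library. In Rabgap1l, a Rab GAP, the circle of exons 9 and 10 held 60 of 82 reads and from 58.8% to all of the reads of a library.

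Dennd5b and Dennd4a, which encode DENN domain GEFs for Rab proteins, were different in that no circle dominated. The leading Dennd5b circle held 35.4% of 65 reads, and 9 of its 14 circles were seen in a single library. For Dennd4a, 10 of 11 circles were seen in a single library and its best-used start site held 7 of 23 reads. Rasa2, a Ras GAP, was at the opposite end, since its 3 circles with 35 reads all started at exon 2.

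Some circles were listed more than once with starts 1 base apart, which made 18 of the 347 such pairs in the table. In Evi5, a Rab11-binding GAP, the entries circRNA954 and circRNA4854 share an end and start 1 base apart. The first held 1, 5 and 12 reads in HFD libraries 1, 2 and 3 and 0, 8 and 3 reads in LFD libraries 1, 2 and 3, whereas the second held 6 reads in LFD library 1 and none elsewhere. The LFD library that lacked the first entry was therefore the only one to hold the second. Sums over the host gene do not depend on this split, and diets are compared on these sums first.

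By diet, the members took a similar share of the back-spliced reads. In HFD libraries 1, 2 and 3 they held 242, 339 and 302 reads, which were 3.77%, 5.14% and 5.03% of the library. In LFD libraries 1, 2 and 3 they held 262, 273 and 230 reads, or 4.87%, 4.94% and 3.66%. The low value of each diet was the library of the higher quality class, and the other 4 libraries lay between 4.87% and 5.14%. The mean was 4.65% ± 0.762 (SD, n = 3) on the HFD and 4.49% ± 0.719 (SD, n = 3) on the LFD, a difference smaller than either SD. Within the lower quality class the means were 5.09% on the HFD and 4.90% on the LFD, with 2 libraries each. Summed SRPBM was 74.3 ± 16.5 on the HFD and 68.7 ± 7.52 on the LFD (SD, n = 3). A library held reads of 53 to 61 members on the HFD and 57 to 59 members on the LFD. Bulk liver libraries cannot tell fewer cells of a type from less circular RNA per cell.

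**Figure D2:**
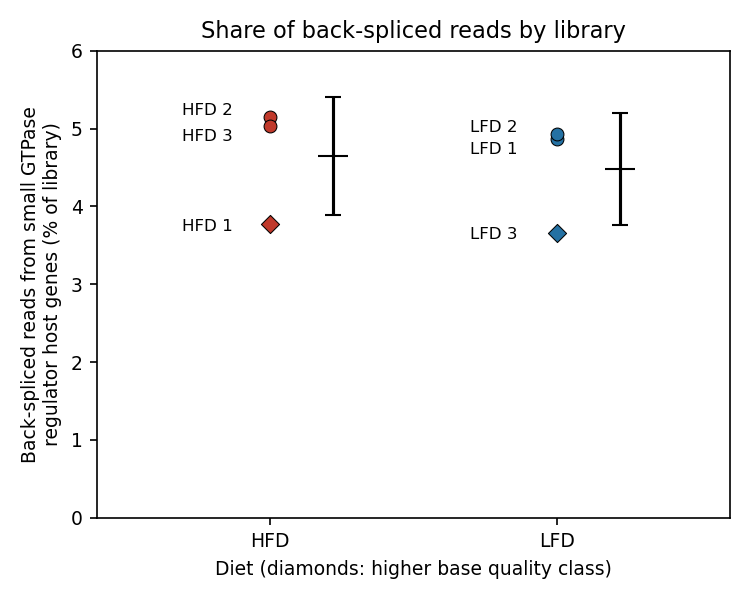
Percent of each library's back-spliced reads that came from small GTPase regulator host genes (vertical axis), by diet, with the mean and SD of each diet beside the points. Diamonds mark the 2 libraries of the higher quality class, at 3.77% and 3.66%, below the 4.87% to 5.14% of the other 4 libraries.

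The quality classes also differed gene by gene. The 2 libraries of the higher class held 35.1% of all reads but 28.6% of the members' reads. Among host genes with 10 reads or more, the median share of a gene's reads in these 2 libraries was 28.0% for 35 members and 31.8% for all 770. Arhgap12, Agap1, Denn2b and Arfgef2, named after their values were seen, had no read in either library despite 32, 21, 16 and 11 reads in all, which makes 4 of 35 members against 4.81% of the 770 host genes. Arhgef10l went the other way, with 4 reads in HFD library 1, 5 in LFD library 3 and none in the others. The part of base quality in these differences was not tested.

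The fit across host genes tested 82 of the 129 members, and the other 47 had reads in a single library and could not be compared. Past an unadjusted p of 0.05 and a log2 fold change of 1 either way in edgeR's quasi-likelihood test, 1 of 82 members differed (1.22%), where 42 of all 1834 host genes tested did (2.29%). That member was lower on the HFD, the direction of 19 of the 1834 (1.04%), and 0 members passed in the other direction, beside 23 of the 1834 (1.25%). It met the requirement of reads in 2 libraries through the LFD alone, as 23 of the 42 called host genes did through 1 diet. With Benjamini-Hochberg adjustment no host gene passed 0.05, and the smallest adjusted p was 0.798. The log2 fold change was above 0 for 41 members and below 0 for 41, with a median of -0.02 against -0.09 for all host genes tested. With HFD library 1 left out 3 members passed, beside 52 of 1604 host genes (3.24%). With HFD library 3 left out 1 member passed, beside 35 of 1632 host genes (2.14%), and with LFD library 2 left out 1 passed, beside 37 of 1652 (2.24%). Without HFD library 2, Asap2, Rabgap1 and Sipa1l1 passed of 76 members, beside 53 of 1611 host genes. Without LFD library 1, Arap1, Sec23a and Sipa1l1 passed of 72 members, beside 61 of 1657. Without LFD library 3, Sipa1l1 passed of 73 members, beside 43 of 1586. The members named for these last fits had reads on 1 diet alone.

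**Figure D3:**
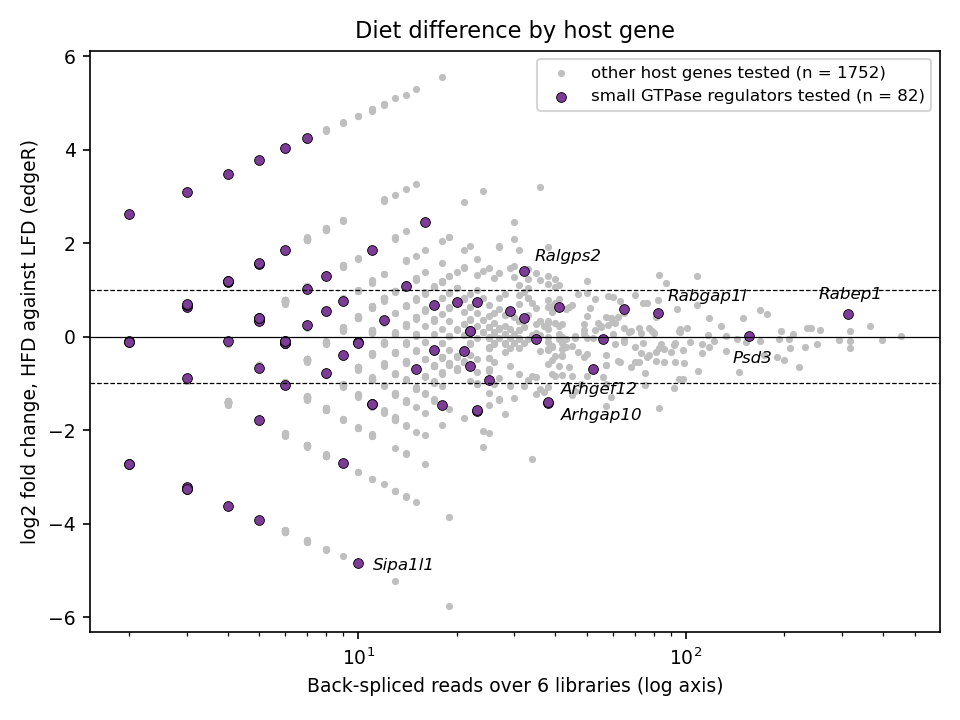
Log2 fold change of HFD against LFD by edgeR (vertical axis) against back-spliced reads over 6 libraries (horizontal log axis) for 82 small GTPase regulators and all other host genes tested. Dashed lines mark a log2 fold change of 1 either way. Members with many reads, such as Rabep1 (0.49) and Psd3 (0.01), lie between the lines, and Sipa1l1 at 10 reads is the member past both thresholds.

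The member that passed was Sipa1l1, which encodes a GAP for Rap proteins. It had no read in any HFD library and 1, 6 and 3 reads in LFD libraries 1, 2 and 3. Its SRPBM was 0 on the HFD and 0.906 ± 0.704 (SD, n = 3) on the LFD, so that the diets did not overlap. Set against the limit of 3 reads in each HFD library, the LFD mean was 1.20-fold higher. This value leaves out the spread of the LFD, where libraries 1 and 3 held 3 reads or fewer, so that it is no lower bound. It passed the unadjusted thresholds only (edgeR adjusted p = 0.798). The 10 reads lay on 2 circles with 5 reads each, mmu_circ_0004245 of exons 5 to 7 in LFD libraries 2 and 3 and mmu_circ_0000400, which is exon 4 alone with 1838 bases, in LFD libraries 1 and 2. LFD library 2 alone held both circles. The difference no longer passed these thresholds without HFD library 1 (edgeR adjusted p = 0.638), HFD library 3 (adjusted p = 0.781) or LFD library 2 (adjusted p = 0.867), nor within the 4 libraries of the lower quality class (adjusted p = 0.681). The fitted log2 fold change was -4.84 over all libraries, -4.92 in the lower quality class and between -5.28 and -4.14 with a library left out. Because the HFD is at 0, this value depends on the prior count, so that a size kept in these fits is no support for a difference.

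Non-overlapping diets were seen for 5 of the 82 members tested, beside 114 of the 1834 host genes tested (6.22%). They were lower on the HFD for 3 members, beside 54 of the 1834 (2.94%), and higher for 2 members, beside 60 of the 1834 (3.27%). Arhgap10 and Sipa1l1 were among the lower ones. The other 3, named after their values were seen, had at most 3 reads in any library. Arap1, an Arf GAP, had no HFD read and 2, 1 and 1 LFD reads. Asap2, an Arf GAP, had 3, 1 and 3 HFD reads and no LFD read, and Rabgap1 had 2, 1 and 1 HFD reads and no LFD read. No fold is given for these because both diets lay at or under the limit of 3 reads. These 3 and Sipa1l1 were the members past the thresholds when reads were required in 3 libraries, beside 55 of 1203 host genes (4.57%). All 4 met that requirement through 1 diet alone, as did 37 of the 55.

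The effectors or carriers, of Rab and of other GTPases, and the Rab GAPs and GEFs together held 750 of the members' 1648 reads. Rabep1 alone held 313 of these. The 5 effectors or carriers had 329 reads, the 13 Rab GAPs 235 reads and the 15 Rab GEFs 186 reads. No tested member of these families passed, of 3, 10 and 11 tested. The summed signal of the Rab GAPs and Rab GEFs was low in the 2 libraries of the higher quality class. For the Rab GAPs it was 6.65 SRPBM in HFD library 1 and 5.01 in LFD library 3 against 10.4 to 14.2 in the other 4 libraries. For the Rab GEFs it was 4.82 and 3.96 SRPBM against 7.79 to 11.4. The effectors or carriers were at 9.18 and 8.97 SRPBM in these libraries, but LFD library 2 was close to them at 9.96. The Ras, Rap and Ral GAPs went the other way. They had 4.13 SRPBM in HFD library 1 against 3.05 and 3.76, and 7.65 in LFD library 3 against 2.93 and 4.15. Most of their 29 reads in LFD library 3 came from Rasa2 with 12 reads and Rasal2 with 8.

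Rabep1 had 36, 71 and 84 reads in HFD libraries 1, 2 and 3 and 58, 33 and 31 reads in LFD libraries 1, 2 and 3. HFD libraries 2 and 3 were the highest, but HFD library 1 lay among the LFD libraries, so that the diets overlapped. Its SRPBM was 16.3 ± 7.31 on the HFD and 10.9 ± 3.95 on the LFD (SD, n = 3), with a log2 fold change of 0.49 (SE 0.335, edgeR adjusted p = 0.798). The 95% interval of the log2 fold change ran from -0.16 to 1.15. In the lower quality class the log2 fold change was 0.63, and with a library left out it lay between 0.22 and 0.87. The leading circle by itself, with 24, 55 and 64 HFD reads and 42, 19 and 28 LFD reads, had a log2 fold change of 0.47 (SE 0.378, edgeR adjusted p = 0.918).

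Gdi2, which extracts Rab proteins from membranes, had 10 reads in all, Ranbp2, a nuclear pore protein that binds Ran, had 4 reads, and Chm and Ranbp3 had 1 read each. These were the remaining effectors or carriers, and none had more than 3 reads in a library.

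Among the Rab GAPs, Rabgap1l had 17, 17 and 16 HFD reads and 9, 17 and 6 LFD reads. The HFD libraries were alike and LFD library 2 matched them, so that the spread lay in the LFD group (log2 fold change 0.50, SE 0.597, edgeR adjusted p = 0.976). In the lower quality class it was 0.21, and with a library left out 0.18 to 1.0. Evi5 had 5, 10 and 14 HFD reads and 14, 9 and 4 LFD reads, with nearly the same range in both diets (log2 fold change -0.05, SE 0.707). Usp6nl, a GAP for Rab5 that acts on receptor uptake, had 0, 10 and 8 HFD reads and 4, 4 and 3 LFD reads, so that the LFD values lay between those of the HFD (log2 fold change 0.54, SE 0.975, and 1.01 in the lower quality class). Rab3gap2, the non-catalytic subunit of Rab3 GAP, had 0, 1 and 5 HFD reads and 4, 9 and 4 LFD reads (log2 fold change -1.57, SE 1.12, adjusted p = 0.808). It passed the thresholds only when HFD library 3, the HFD library with most of its reads, was left out (log2 fold change -3.34, adjusted p = 0.781).
The catalytic subunit Rab3gap1 had 6 reads. The other Rab GAPs were Tbc1d5 with 23 reads, Rabgap1 with 4, Tbc1d9b with 3, and Grtp1, Tbc1d8, Tbc1d15, Tbc1d16 and Tbc1d20 with 1 or 2 reads each.

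Among the Rab GEFs, Dennd5b had 7, 23 and 11 HFD reads and 15, 4 and 5 LFD reads, which overlapped (log2 fold change 0.60, SE 0.667, edgeR adjusted p = 0.976). The value was 0.048 without HFD library 2 and 1.45 without LFD library 1. Dennd4a had 2, 3 and 1 HFD reads and 8, 8 and 1 LFD reads. LFD library 3 lay with the HFD libraries, and the log2 fold change of -1.59 did not pass (SE 1.11, adjusted p = 0.798), although it passed the unadjusted thresholds within the lower quality class (log2 fold change -2.08, adjusted p = 0.669). Rin2, a Rab5 GEF, had 25 reads of which 13 came from LFD library 2, the most of any library. Further Rab GEFs were Dennd4c with 14 reads, Sbf2 with 8, Dennd6a with 7, Dennd1a and Sbf1 with 6 each, Gapvd1 with 5, C9orf72 and Dennd5a with 3 each, and Ankrd27, Hps1 and Rab3ip with 1 each.

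Arhgap10, a GAP for RhoA and Cdc42, had 6, 5 and 0 HFD reads and 14, 6 and 7 LFD reads. On the SRPBM scale the diets did not overlap, at 0.883 ± 0.766 on the HFD and 2.41 ± 1.14 on the LFD (SD, n = 3). The HFD to LFD ratio of the summed reads, set against the library totals, was 0.369 with a 95% counting interval of 0.165 to 0.768. That interval leaves out the spread between mice. The 95% interval of the log2 fold change ran from -3.11 to 0.27. It uses a spread between libraries that was estimated largely over all host genes together. The log2 fold change of -1.42 (SE 0.861, edgeR adjusted p = 0.798) did not pass, but it passed the unadjusted thresholds without HFD library 1 (log2 fold change -1.99, adjusted p = 0.638). It did not pass with any other library left out, at -0.86 without HFD library 3 and -0.92 without LFD library 1, or in the lower quality class (log2 fold change -2.10, adjusted p = 0.823). Its reads came from 8 circles, of which mmu_circ_0001692 held 16 and mmu_circ_0001693, made of exons 2 and 3, held 11, of which 7 were in LFD library 1.

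Arhgef12, an exchange factor that couples G protein-coupled receptors to RhoA, had 9, 2 and 0 HFD reads and 11, 7 and 9 LFD reads. HFD library 1 lay among the LFD libraries and the other HFD libraries lay below all of them. The log2 fold change was -1.40 over all libraries (SE 0.862, edgeR adjusted p = 0.798) and -3.19 without HFD library 1 (adjusted p = 0.638), where it passed the unadjusted thresholds. By limma on log2(SRPBM + 1), Arhgef12 passed the unadjusted thresholds over all libraries (log2 fold change -1.02, limma adjusted p = 0.9995). It was the 1 member called there, beside 17 of 1834 host genes. Within the 4 libraries of the lower quality class the edgeR log2 fold change was -3.16 (adjusted p = 0.669). In that class 5 of the 66 members tested passed the unadjusted thresholds, Arhgef12, Arap1, Dennd4a, Eif2b1 and Tbc1d9b, where 51 of 1326 host genes tested did (3.85%). Arap1, Eif2b1 and Tbc1d9b had 3 reads each in that class, all on 1 diet, and so met the requirement of reads in 2 libraries through that diet alone, as did 39 of the 51.

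Arhgap32, a GAP for Cdc42 and RhoA, had 7, 9 and 5 HFD reads and 4, 18 and 9 LFD reads (log2 fold change -0.68, SE 0.735, edgeR adjusted p = 0.976). LFD library 2 alone held 15 of the 28 reads of its leading circle. Arhgap12, a GAP for Rac1, had 0, 6 and 13 HFD reads and 5, 8 and 0 LFD reads (log2 fold change 0.40, SE 0.923), with the zeros in the libraries of the higher quality class and a log2 fold change of 0.41 without both. Fgd6, a Cdc42 GEF, had 16, 7 and 3 HFD reads and 6, 5 and 4 LFD reads (log2 fold change 0.64, SE 0.826). HFD library 1 held 15 of the 35 reads of its 99-base circle, and without both libraries of the higher quality class the log2 fold change was -0.28. Spata13, a GEF for Rac1 and Cdc42, had 6, 3 and 3 HFD reads and 5, 1 and 4 LFD reads (log2 fold change 0.11, SE 1.11).

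Other GAPs with 10 reads or more were Arhgap26 with 20, Arhgap29 with 15, and Arhgap21 and Srgap1 with 11 each. Arhgap24, Arhgap35, Bcr, Fam13b, Myo9b, Arhgap42 and Arhgap23 had 1 to 6 reads. Among further exchange factors the DOCK family, which acts on Rac and Cdc42, was represented by Dock4 with 22 reads, Dock1 with 10, Dock8 with 6, Dock10 with 5, Dock9 with 2 and Dock5 with 1. Vav3 had 12 reads, Akap13 and Arhgef10l 9 each, Arhgef7 and Itsn2 8 each, and Farp2, Itsn1 and Prex2 5 each. Arhgef40, Arhgef26, Trio, Arhgef11, Ect2, Farp1, Vav2, Arhgef18, Arhgef3, Fgd3, Fgd4, Plekhg1 and Plekhg6 had 1 to 4 reads.

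The Arf GEFs were led by Psd3, whose 31, 34 and 17 HFD reads and 21, 25 and 28 LFD reads overlapped widely, with both the lowest and the highest library on the HFD. Its SRPBM was 6.78 ± 2.06 on the HFD and 6.63 ± 0.930 on the LFD (SD, n = 3), with a log2 fold change of 0.01 (SE 0.442, edgeR adjusted p = 0.991). The 95% interval ran from -0.86 to 0.87. The entry with the start shifted by 3 bases, circRNA1513, had 3, 0 and 5 HFD reads and no LFD read and did not pass (edgeR adjusted p = 0.694). Fbxo8 had 17 reads, Arfgef2 had 11 and Cyth3 had 2.

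The 13 Arf GAPs had 56 reads in all and only 4 were tested. Agap1 led with 0, 9 and 1 HFD reads and 6, 5 and 0 LFD reads (log2 fold change -0.30, edgeR adjusted p = 0.976). Asap2 had 7 reads, Asap1 6, Adap2 5, Arap1 and Asap3 4 each, and Acap2, Elmod3, Agap3, Agfg2, Arap3, Smap1 and Smap2 had 1 or 2 each. The 6 reads of Asap1 were all in HFD library 2, so that it could not be tested.

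The Ras, Rap and Ral regulators comprised 10 GAPs with 99 reads and 8 GEFs with 48 reads. Rasa2 had 7, 4 and 7 HFD reads and 3, 2 and 12 LFD reads, with both the lowest and the highest library on the LFD (log2 fold change -0.05, edgeR adjusted p = 0.976). Without both libraries of the higher quality class its log2 fold change was 0.97. Ralgps2, a GEF for RalA, had 4, 14 and 6 HFD reads and 1, 7 and 0 LFD reads. LFD library 2 lay within the HFD range, and the log2 fold change of 1.40 did not pass (SE 0.963, adjusted p = 0.798), but the unadjusted thresholds were passed when that library was left out (log2 fold change 3.56, adjusted p = 0.867). The log2 fold change was 0.79 without HFD library 2 and 0.78 without LFD library 3. Other GAPs of this group were Ralgapa2 with 22 reads, Rasal2 with 9 of which 8 were in LFD library 3, Nf1 with 7, Dab2ip and Ralgapa1 with 6 each, Sipa1l2 with 2, and Ralgapb and Sipa1l3 with 1 each. Among the GEFs, Rapgef4 had 6 reads, Rgl3 had 3, Rapgef2 and Rapgef3 had 2 each, and Ralgps1, Rapgef6 and Rgl1 had 1 each.

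A further 14 members were placed in no family by the list used, although some may act on the same GTPases. They were Stxbp5 with 17 reads, Denn2b with 16, Bcar3, Eif2b1 and Pgam5 with 5 each, Lrrk2 with 4, Dnmbp, Lars, Rangap1 and Sec23a with 3 each, Dis3 and Llgl1 with 2 each, and Eif2b4 and Gm49510 with 1 each. Of these, 9 were tested and none passed. Denn2b had 0, 5 and 9 HFD reads and 2, 0 and 0 LFD reads from a single circle (log2 fold change 2.45, edgeR adjusted p = 0.798), and it passed the unadjusted thresholds without HFD library 1 (log2 fold change 3.02). It did not pass in the lower quality class (log2 fold change 2.53, adjusted p = 0.701) or with any other library left out, where the value lay between 1.53 without HFD library 3 and 5.22 without LFD library 1. Ric8b and Rgs7, regulators of heterotrimeric G proteins, had 2 reads and 1 read.

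**Figure D4:**
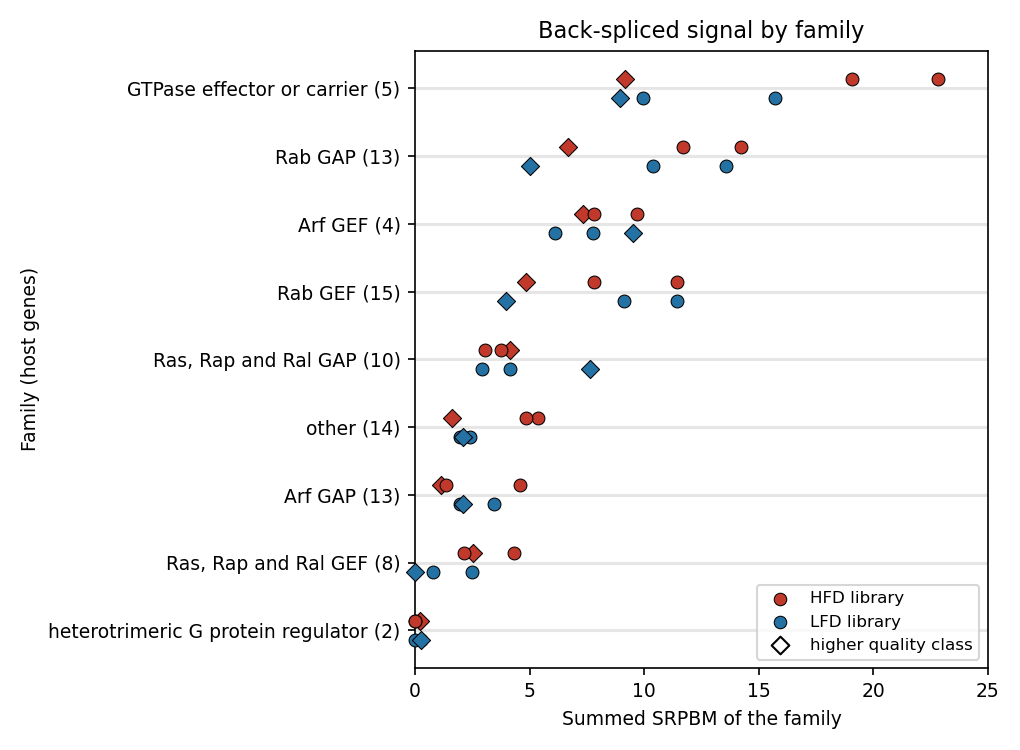
Summed SRPBM (horizontal axis) of 9 groups of small GTPase regulators ("other" holds members placed in no family by the list used). The number of host genes is in brackets, and points are 3 HFD and 3 LFD libraries. Diamonds mark the 2 libraries of the higher quality class. They are the lowest of their diet for the effectors or carriers, Rab GAPs and Rab GEFs, and the highest for the Ras, Rap and Ral GAPs.

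**Figure D5:**
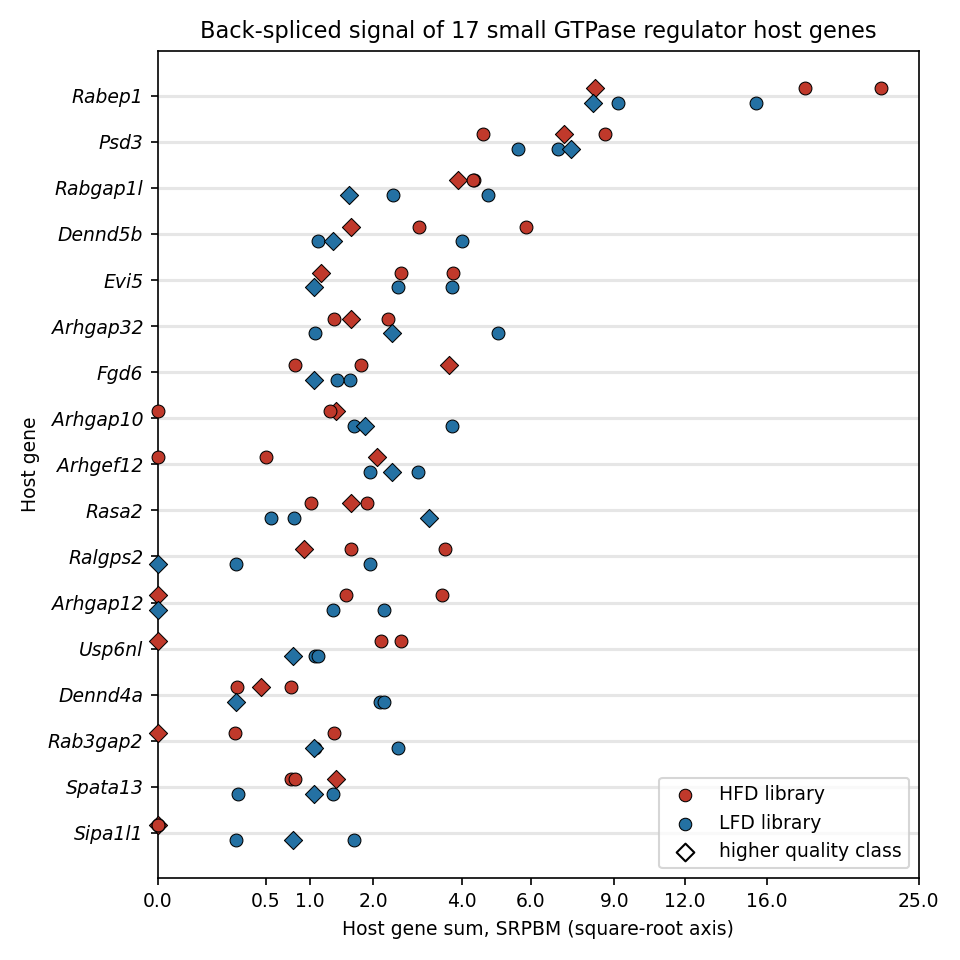
Host gene sums in SRPBM (horizontal square-root axis) of the 17 members named by rule, in 3 HFD and 3 LFD libraries, ordered by reads. The diets overlap for all of them except Arhgap10 and Sipa1l1.

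On the level of single circles, 101 of the 358 entries had reads in at least 2 libraries and were tested. No member circle passed the thresholds in edgeR's quasi-likelihood test, and 0 had an unadjusted p under 0.05, where 49 of all 2041 circRNAs tested passed (2.4%). The smallest unadjusted p among them was 0.0644. DESeq2, the edgeR exact test and limma also called 0 member circles. Without HFD library 2, 2 of 84 member circles passed, circRNA1513 of Psd3 and mmu_circ_0001692 of Arhgap10, beside 20 of 1692 circRNAs (1.18%). Without LFD library 1, 1 of 81 passed, mmu_circ_0013749 of Denn2b, beside 36 of 1733 (2.08%). In these fits each of the 3 circles had reads on 1 diet alone.

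The GTPases themselves gave 11.1 back-spliced reads a host gene, beside 12.8 for the members. Of 101 small GTPase genes looked for, 24 were hosts, with 34 circRNAs and 267 reads, and of the 14 tested none passed. Rras2, a Ras relative, held 98 of these reads, 16, 23 and 8 on the HFD and 28, 12 and 11 on the LFD (log2 fold change -0.28, edgeR adjusted p = 0.976). Arl8b, which moves lysosomes, followed with 59 reads and Rhot1, a mitochondrial GTPase, with 42 reads. Of 85 further effectors and carriers, 32 were hosts with 78 circRNAs and 240 reads, and of the 20 tested none passed. They were led by Ehbp1 with 33 reads and Rock1 with 27.

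Beyond the 2 terms, the members' annotation listed cytoplasm for 87 members (67.4%, against 45.2% of host genes) and cytosol for 48 (37.2%, against 29.1%). The term small GTPase mediated signal transduction was held by 25 members (19.4%, against 1.04% of host genes) and Rab GTPase binding by 23 (17.8%, against 1.36%). Plasma membrane was listed for 46 members (35.7%, against 20.4%) and endosome for 17 (13.2%, against 5.02%), whereas nucleus was listed for 17 (13.2%, against 40.9%). In KEGG, 14 members lay in Endocytosis, 10 in Rap1 signaling and 8 in regulation of the actin cytoskeleton. These shares follow from how the genes were chosen and were not tested.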

How the data were processed

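Liver RNA of 3 HFD and 3 LFD mice was sequenced, with diet and replicate number read from the sample titles. Per the methods and the submitters' processing notes, the authors trimmed reads with Cutadapt 1.9, mapped them with Bowtie2, TopHat2 2.0.4 and TopHat-Fusion, and used CIRCExplorer2 and CIRI to find circles. The authors deposited the back-spliced read count of each circRNA and library without normalization. The deposited signal, SRPBM, is the same count times a single factor of the library. Host genes were those the table lists, and their circles were summed. The 90 intergenic entries with 2.20% of the reads name no host gene and stayed out of the fit of host genes.

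Features, host genes or single circles, that had reads in 2 or more libraries were tested with the edgeR quasi-likelihood test (glmQLFit, glmQLFTest, TMM), 2-sided, on all such features. A feature was called at an unadjusted p under 0.05 when its log2 fold change was at least 1 either way, with Benjamini-Hochberg adjustment over all features tested. The standard error of a log2 fold change was derived from the fitted F statistic, and its 95% interval from that error. The test was tried on simulated counts in which 200 features were changed 8-fold. With a simulated dispersion (spread beyond counting) of 1, it called 39.3% of the changed host genes tested and 32.6% of the changed circRNAs tested. No feature then had an adjusted p under 0.05. With a dispersion of 0.05 it called 76.5% and 69.5%. The dispersion fitted to the data was 0.562 for host genes and 1.17 for circRNAs. Counting intervals and the limit of 3 reads cover counting error only. The edgeR p-values rest on a spread between libraries that was estimated largely over all features together. They therefore say little of the spread of a single gene among its 3 mice a diet. Arhgap10 and Arhgef12, with the same summed reads in each diet, had SEs of 0.861 and 0.862 although their SDs differed. Exons, transcripts and sequences came from GENCODE M21.

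Some members and families are left undescribed here and enter only the totals over all members. The members and all lists, including families, related genes and cell markers, were chosen with earlier results of these data known. Named with full values were the 10 members with the most reads, every member past the thresholds, every member of at least 10 reads whose diets did not overlap, the 5 with the most circles, and the hosts of the 3 other circles with the most reads, ties included, and the remaining members are given by their reads. Alternatives were other library sizes, DESeq2, the edgeR exact test, limma on log2(SRPBM + 1), other filters, the replicate number or the quality class in the model, the lower quality class alone, exonic circles alone, entries 1 base apart summed, and each library left out.

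Fits were run in R 4.3.3 (edgeR 4.0.16; DESeq2 1.42.0; limma 3.58.1), and tables and figures were made in Python 3.11.15 (NumPy 2.4.6; pandas 2.3.3; matplotlib 3.10.9; SciPy 1.17.1).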

Additional observations from a re-analysis of the deposited data

How the results depend on the processing

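Depth was a limit, since 47 of 129 members could not be tested and a count of 0 allowed 3 reads. The count of members past the thresholds, 1 in the reported fit, was 4 with reads required in 3 libraries (all 4 with reads on 1 diet alone), 5 in the 4 libraries of the lower quality class (3 of them so), 0 with the replicate block, and between 1 and 3 with a library left out (3 without HFD library 1, HFD library 2 or LFD library 1). Among member circRNAs, 0 in the reported fit, it was 1 of 75 in the lower quality class, beside 26 of 1357 circRNAs. It was 1 of 109 with entries 1 base apart summed, beside 47 of 2089, and 0 to 2 with a library left out. Among related genes it was 1 without HFD library 1 (beside 52 of 1604 host genes), 1 without LFD library 3 (beside 43 of 1586), and 0 with any other library left out. Over all host genes, 42 in the reported fit, it was 24 by the exact test, 17 by limma, 14 with the block, 27 with the quality class as a term, and 35 to 61 with a library left out. Over all circRNAs, 49 in the reported fit, it was 13 by DESeq2, 12 by the exact test, 20 by limma, 10 with the block, 13 with the class term, 26 in the lower class, and 20 to 39 with a library left out. Whether the replicate numbers pair the libraries of the diets was not tested. The deviations of same-numbered libraries correlated at -0.165, 0.199 and -0.207 for numbers 1, 2 and 3. HFD library 1 correlated best with LFD library 3 (0.417), and HFD library 2 correlated best with LFD library 2. By limma 1 member passed, Arhgef12, and Sipa1l1 did not, with a log2 fold change of -0.86 on the log2(SRPBM + 1) scale. Sipa1l1 also failed to pass with the block, where the fold was nearly as large as in the reported fit (-4.75 against -4.84, edgeR adjusted p = 0.996). The cause was not tested for any of these.

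With a library left out, the family medians of the log2 fold change ran from -3.15 to 0.27 for the Arf GAPs, -0.072 to 1.33 for the Arf GEFs, -0.43 to 0.70 for the Rab GAPs, 0.10 to 3.56 for the Ras, Rap and Ral GEFs and -3.24 to -2.70 for the G protein regulators. With exonic circles alone the median of the Ras, Rap and Ral GEFs was 1.40. The relative HFD to LFD difference in the members' share of reads, 3.61%, ran from -5.16% to 13.4% with a library left out. The relative difference in members detected, -1.16%, was 6.09% when 2 reads were required. Signs turned for Psd3 by limma (-0.0020) and with the block (-0.033), for Evi5 with library sizes from mapped reads (0.026), limma (0.032) and 3 libraries required (0.0039), and for Usp6nl with exonic circles alone (-0.047). In the lower quality class they turned for Fgd6 (-0.28), Spata13 (-0.14) and Rasa2 (0.97), and Rasa2 also turned without TMM (0.0050), by limma (0.13), with 3 libraries required (0.033), with the block (0.22) and with the class term (0.20). With a library left out the log2 fold change ran from -0.69 to 1.15 for Arhgap12, -0.43 to 0.45 for Evi5, -0.17 to 1.05 for Fgd6, -0.13 to 0.25 for Psd3, -0.41 to 1.06 for Rasa2 and -0.31 to 0.55 for Spata13.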
